A study of Mus musculus with 36 samples.

Results

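The collagen genes encode the chains of the fibrous and network proteins that hold tissues together. They were taken as the protein-coding genes whose symbol is Col, a number, the letter a and a number, a rule that uses no measured value. It found 44 genes among 21900 protein-coding genes. By the structure that the finished protein forms, 11 belong to the fibrillar collagens, 6 to the basement membrane network of collagen IV, 6 to the beaded filaments of collagen VI, 9 to the fibril-associated collagens (FACIT), 4 to the transmembrane collagens, 3 to the short chain networks, 2 to the multiplexins and 1 to the anchoring fibrils, and 2 are of other kinds.

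Collagen chains are folded and hydroxylated in the endoplasmic reticulum, held there by the chaperone that Serpinh1 encodes, and assembled as triple helices before they are secreted, trimmed and crosslinked. Fibroblasts, pericytes and some tumour cells make most of the collagen of a tumour, while macrophages are better known for breaking it down and taking it up through the receptor that Mrc1 encodes. Collagen RNA in a library prepared from macrophages is therefore often read as a measure of other cells in the sample.

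RNA sequencing covered 36 libraries of wild-type mouse cells in 12 groups of 3. Tumour-associated macrophages (TAM) came from tumours of mice bearing B16-F10, a melanoma line (B16 TAM), or MC38, a colon carcinoma line (MC38 TAM). Monocytes and granulocyte-macrophage progenitors (GMP) came from bone marrow. Each population was taken after PBS (phosphate-buffered saline, the control), OMV-SIRP or OMV-SIRP-G, 2 engineered outer membrane vesicle preparations whose suffixes the labels do not spell out. Neither mouse age nor the way the cells were isolated is given in the labels, and no other allele or agent is named. According to the design text, 3 samples per group went into a pool. Whether the 3 libraries stand for separate mice is not stated, so a p-value here covers only library-to-library spread, which may be technical.

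Values are FPKM as deposited, the reads of a gene scaled by its length and by a factor for each library. That factor is not simply the total of the reads assigned in the library, as rescaling to that total changed the values. Changes are differences of log2(FPKM + 1), which understate the change of low genes, and were tested with limma within a population over all genes at 1 FPKM or more in at least 3 of its 9 libraries. Benjamini-Hochberg adjustment covered every gene tested in the comparison, and a gene is called higher or lower where the adjusted p is under 0.05. Each population was tested on its own, and the 3 deposited tables, of which 1 holds both marrow populations, differ in scaling. These are bulk samples, in which fewer cells of a type and less RNA per cell cannot be told apart.

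Between 13036567 and 19822660 reads were assigned to genes in a library. The libraries of a group correlated on the log2 scale at 0.929 to 0.976 in B16 TAM, 0.810 to 0.950 in MC38 TAM, 0.925 to 0.988 in monocytes and 0.980 to 0.989 in GMP. Collagens were a small share of this depth: the 44 genes together held 1755 to 6659 reads in a B16 TAM library, 13584 to 36234 in MC38 TAM, 398 to 749 in monocytes and 1442 to 1950 in GMP. The filter on low values kept 13 of the 44 genes in B16 TAM, 18 in MC38 TAM, 1 in monocytes and 3 in GMP, and none of these passed it through 1 group alone. All 9 libraries were below 1 FPKM for 30 genes in B16 TAM, 19 in MC38 TAM, 43 in monocytes and 41 in GMP. No reads at all were counted in any library for 2, 3, 5 and 6 of the genes, respectively.

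Several members lie side by side in the genome (GRCm38, the build of the deposited coordinates). Col4a1 and Col4a2, the chains of the common basement membrane collagen, are transcribed away from each other on chromosome 8 and their annotated ends overlap by 22 bases. Col3a1 and Col5a2 are neighbours on chromosome 1, 24614 bases apart. Whether the counting used strand is not given in the sources used here, so reads from overlapping genes of opposite strand cannot be told apart. Among the members this touches Col18a1, which overlaps Slc19a1 by 8825 bases, Col10a1, which overlaps Nt5dc1, and Col9a3, which overlaps Tcfl5 by 234 bases.

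The 250 bases before the start of 4 members are shown as examples. Col3a1 and Col5a1 were called in more than 1 comparison, Col6a3 was the highest collagen of MC38 TAM and Col11a2 the highest of both marrow populations. They come from RefSeq on GRCm38.p6 and are printed 5′ to 3′ on the gene's own strand, with 3 motifs, searched on both strands, in capitals: the CCAAT box, the GC box written GGGCGG, which reads backwards as its complement on the other strand, and the TATA box written TATAAA. The windows are chr1:45311288-45311537 (+) for Col3a1, chr2:27886175-27886424 (+) for Col5a1, chr1:90843972-90844221 (-) for Col6a3 and chr17:34038888-34039137 (+) for Col11a2, and none of them holds an annotated exon.
Col3a1: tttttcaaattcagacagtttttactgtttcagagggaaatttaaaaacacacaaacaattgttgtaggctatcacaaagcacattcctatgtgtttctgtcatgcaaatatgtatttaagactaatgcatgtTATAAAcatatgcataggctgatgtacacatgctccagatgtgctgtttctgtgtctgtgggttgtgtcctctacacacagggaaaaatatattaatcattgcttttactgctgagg
Col5a1: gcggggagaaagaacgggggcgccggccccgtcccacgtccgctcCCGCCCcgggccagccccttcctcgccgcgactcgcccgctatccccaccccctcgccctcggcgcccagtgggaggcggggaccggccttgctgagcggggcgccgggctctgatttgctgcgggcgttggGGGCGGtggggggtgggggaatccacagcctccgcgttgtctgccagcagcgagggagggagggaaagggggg
Col6a3: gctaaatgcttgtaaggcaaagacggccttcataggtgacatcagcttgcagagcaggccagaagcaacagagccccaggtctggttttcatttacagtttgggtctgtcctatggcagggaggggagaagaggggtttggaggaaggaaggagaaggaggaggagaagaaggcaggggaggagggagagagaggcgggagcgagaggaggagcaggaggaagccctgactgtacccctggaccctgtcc
Col11a2: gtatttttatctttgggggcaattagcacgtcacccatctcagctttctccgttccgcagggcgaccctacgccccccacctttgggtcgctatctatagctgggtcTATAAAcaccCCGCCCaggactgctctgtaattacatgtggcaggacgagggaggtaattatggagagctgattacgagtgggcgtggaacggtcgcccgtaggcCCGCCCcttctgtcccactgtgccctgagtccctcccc
Col3a1 holds 1 TATAAA and no GGGCGG, Col5a1 holds 2 GGGCGG and no TATAAA, Col11a2 holds 1 TATAAA and 2 GGGCGG, and Col6a3 holds none of the 3 motifs. Col1a2 and Col16a1, also called in more than 1 comparison, are not shown. Their windows hold 1 CCAAT each, with 2 GGGCGG in Col1a2 and 1 in Col16a1. Unlike the windows shown, both overlap annotated exons, with 2 entries each, and that of Col1a2 lies inside the deposited gene. RefSeq windows were matched for 35 of the 44 members, with 38 windows in all. Of these 38, GGGCGG was in 22, CCAAT in 13 and TATAAA in 5, against 32.7%, 33.8% and 12.4% of all 32851 windows of the same length. A match says only that the letters are there.

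**Figure D1:**
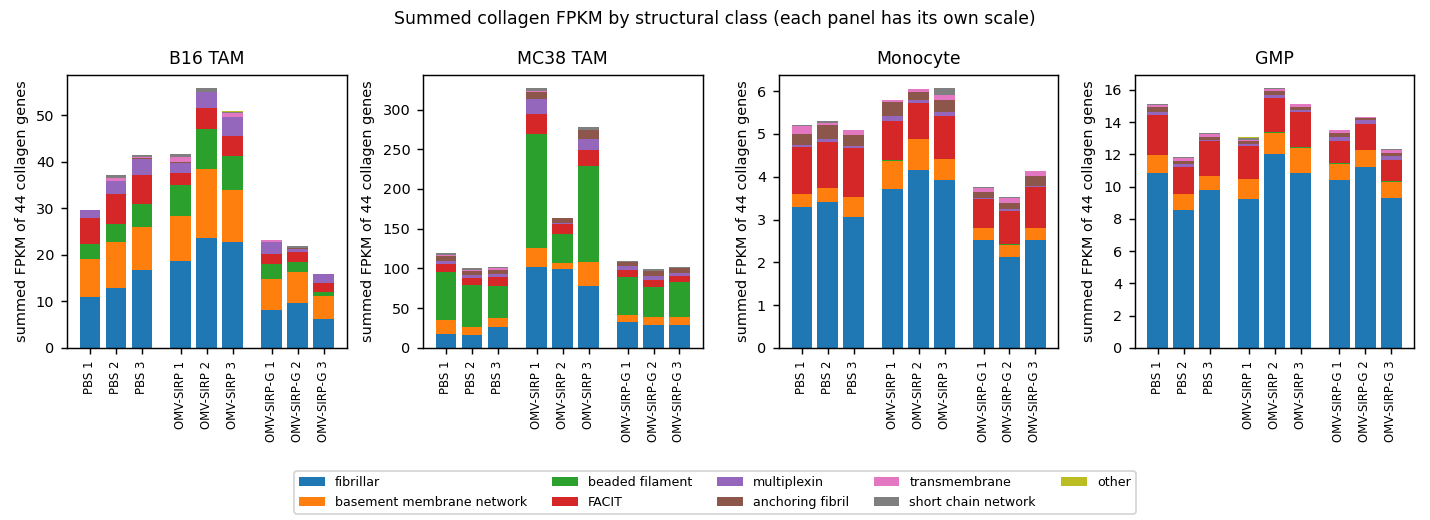
Summed FPKM of the 44 collagen genes in each library, stacked by structural class, with 1 panel per population on its own scale. The sums ran from 15.8 to 56.0 in B16 TAM, 99.3 to 328 in MC38 TAM, 3.52 to 6.09 in monocytes and 11.9 to 16.2 in GMP, and the B16 TAM, MC38 TAM and marrow tables were scaled separately.

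The 4 populations differed in which class led, as the plot of summed FPKM by class shows. Fibrillar chains held 40.8% of the summed collagen FPKM in B16 TAM, followed by the basement membrane network at 25.5%, the beaded filaments at 13.0% and the FACIT at 11.3%. In MC38 TAM the beaded filament chains led with 41.8% and the fibrillar chains held 30.5%. Monocytes and GMP had 63.9% and 73.8% in fibrillar chains, of which 1 gene, Col11a2, alone made 52.6% and 54.4% of the whole sum. These shares pool the 9 libraries of a population and are per deposited gene length. Within treatments the order differed: in B16 TAM the FACIT sum was above the beaded filament sum in all 3 PBS libraries (means 6.15 and 4.01 FPKM) and below it in all 3 OMV-SIRP libraries (3.85 and 7.56). In MC38 TAM the fibrillar sum of OMV-SIRP replicate 2 was 98.7 FPKM against 36.8 for the beaded filaments.

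B16 TAM carried a low, mixed set of collagens that was lowest after OMV-SIRP-G. The 44 genes summed to 29.6, 37.2 and 41.4 FPKM in the PBS libraries, 41.8, 56.0 and 50.9 after OMV-SIRP and 23.1, 21.8 and 15.8 after OMV-SIRP-G. All 3 OMV-SIRP-G sums lay below all 6 others, and all 3 OMV-SIRP sums lay above the PBS sums. Between the 2 vesicle treatments 8 of the 13 tested collagens fell and none rose, while against PBS 1 fell after OMV-SIRP-G and none passed the test after OMV-SIRP. Of all genes tested, 5.62% fell between the treatments and 7.28% after OMV-SIRP-G against PBS. The count of 8 was 2 without the filter on low values and 2 to 5 with 1 library left out.

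Among the fibrillar collagens, Col1a1, a chain of collagen I and the highest collagen of B16 TAM, measured 4.14, 4.39 and 7.07 FPKM after PBS, 6.20, 9.75 and 9.80 after OMV-SIRP and 2.81, 4.92 and 2.05 after OMV-SIRP-G. Every OMV-SIRP-G library was below every OMV-SIRP library, while the OMV-SIRP-G and PBS libraries overlapped. Its partner chain Col1a2 gave 1.55, 1.84 and 2.39 FPKM after PBS, 3.83, 3.44 and 4.09 after OMV-SIRP and 1.27, 1.38 and 0.464 after OMV-SIRP-G, so that the 3 groups did not overlap at all. Col3a1, the chain of collagen III, stood at 2.39, 3.07 and 3.93 FPKM, then 3.38, 4.73 and 4.61, then 2.36, 1.30 and 0.846 in the same order of groups. Col5a1, a chain of collagen V that is built into collagen I fibrils, was at 0.652, 1.38 and 1.27 FPKM after PBS, 1.75, 2.53 and 1.37 after OMV-SIRP and 0.186, 0.304 and 0.555 after OMV-SIRP-G. Its OMV-SIRP-G libraries were below all others.

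From OMV-SIRP to OMV-SIRP-G, Col1a2 fell by 1.26 (SE 0.24, limma, adjusted p = 0.00814), Col1a1 by 1.20 (SE 0.29, adjusted p = 0.0228), Col3a1 by 1.10 (SE 0.26, adjusted p = 0.0219) and Col5a1 by 1.08 (SE 0.29, adjusted p = 0.0354) on the log2 scale. The comparison tested 12542 genes. The Col1a2 call was kept in 12 of 12 alternative settings, those of Col1a1 and Col3a1 in 7 each and that of Col5a1 in 5. None of these 4 genes was called between either treatment and PBS. Col1a2 was 0.72 (SE 0.24) higher after OMV-SIRP than after PBS on the log2 scale, with an adjusted p of 0.298, and 0.54 (SE 0.24) lower after OMV-SIRP-G, with an adjusted p of 0.171.

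Of the 2 main chains of basement membrane collagen IV, Col4a1 was called and Col4a2 was not; whether they differ was not tested. Col4a1 measured 3.42, 4.01 and 4.21 FPKM after PBS, 4.88, 7.74 and 6.28 after OMV-SIRP and 2.01, 3.42 and 3.54 after OMV-SIRP-G. It fell by 0.88 (SE 0.22, adjusted p = 0.0295) from OMV-SIRP to OMV-SIRP-G, a call kept in 7 of 12 alternatives. Col4a2 measured 3.02, 4.13 and 3.10 FPKM, then 3.05, 4.90 and 3.54, then 4.08, 2.28 and 0.850, and its change in the same comparison was -0.60 (SE 0.33, adjusted p = 0.294). The OMV-SIRP-G libraries spread widely for Col4a2, from the lowest to among the highest of the 9.

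Col6a1 and Col6a2 encode 2 of the chains of collagen VI, which forms beaded filaments around cells. Col6a1 was at 1.501, 2.16 and 2.98 FPKM after PBS, 3.95, 4.14 and 4.97 after OMV-SIRP and 1.65, 1.67 and 0 after OMV-SIRP-G. Col6a2 was at 0.577, 1.11 and 1.19 FPKM, then 2.08, 2.61 and 1.65, then 1.051, 0.341 and 0. Both genes had 0 reads in OMV-SIRP-G replicate 3, which allows at most 0.0482 FPKM of Col6a1 and 0.0253 FPKM of Col6a2 by counting error alone. The other libraries of that group had 110 and 113 reads of Col6a1 and 133 and 44 of Col6a2. All 6 beaded filament genes together still had 176 reads (1.04 FPKM) in replicate 3, against 349 and 179 in replicates 1 and 2. From OMV-SIRP to OMV-SIRP-G, Col6a1 fell by 1.48 (SE 0.37, adjusted p = 0.0269) and Col6a2 by 1.14 (SE 0.32, adjusted p = 0.0457). These calls were kept in 6 and 3 of 12 alternatives, and Col5a1 and Col6a2 lost theirs with the replicate number as a block.

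Col16a1, a fibril-associated collagen, measured 3.72, 4.60 and 3.92 FPKM after PBS, 2.03, 3.50 and 3.19 after OMV-SIRP and 0.731, 0.546 and 0.459 after OMV-SIRP-G, and no value of one group overlapped another. Its change after OMV-SIRP against PBS, -0.39 (SE 0.22), did not pass the test (adjusted p = 0.642). After OMV-SIRP-G it fell by 1.69 (SE 0.22, adjusted p = 0.000665) against PBS and by 1.29 (SE 0.22, adjusted p = 0.00410) against OMV-SIRP. Col16a1 passed both tests under all 12 alternative settings. The other 3 tested members, Col15a1, Col4a5 and Col5a3, lay between 0.235 and 1.74 FPKM and were not called. Col18a1, the multiplexin that is the source of endostatin, spread over 0.820, 1.996 and 2.41 FPKM after PBS, 0.644, 2.07 and 2.97 after OMV-SIRP and 1.22, 0.258 and 1.19 after OMV-SIRP-G, and was not called in any comparison.

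**Figure D2:**
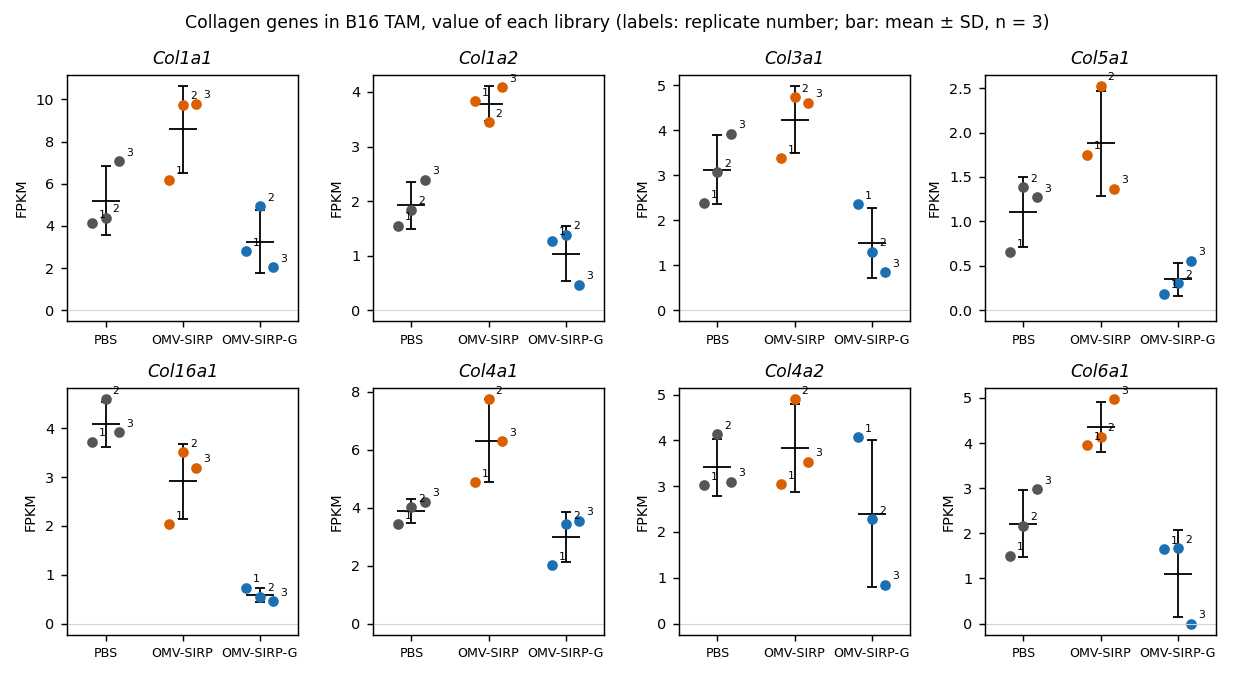
FPKM of 8 collagen genes in the 9 B16 TAM libraries, as points numbered by replicate with the mean and SD of each group of 3. Col16a1 stepped down over the 3 groups from 3.72 or more after PBS to 0.731 or less after OMV-SIRP-G, while the other genes were mostly highest after OMV-SIRP.

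Over the 13 tested members, 12 had a positive change after OMV-SIRP against PBS, with a median of 0.35 on the log2 scale beside -0.01 for all genes tested. No member was called there with limma, although 2 had an unadjusted p under 0.05, and limma voom on the reads also called 0. Of all genes tested, 1.45% were called in either direction. In 6 members the 3 OMV-SIRP libraries all lay above the 3 PBS libraries, against 7.88% of all genes. After OMV-SIRP-G against PBS all 13 changes were negative, with a median of -0.53 beside -0.03 for all genes, and in 4 members the groups did not overlap, as was the case for 18.6% of all genes in that direction. Between the vesicle treatments all 13 were negative, with a median of -1.08 beside -0.02 for all genes. These 3 comparisons share their groups of libraries. The count of 8 depended on the libraries: leaving out OMV-SIRP replicate 2 left 2 called, leaving out OMV-SIRP replicate 3 left 3, and leaving out OMV-SIRP replicate 1 or any of the 3 OMV-SIRP-G libraries left 5. Col16a1 and Col1a2 were called under all 12 alternatives.

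Marker genes of other cell types also differed between the groups of B16 TAM, and not always in the direction of the collagens. After OMV-SIRP-G the melanocyte, fibroblast and T cell sums were below PBS as the collagen sum was, whereas after OMV-SIRP they were below PBS while the collagen sum was above it. The summed FPKM of 10 macrophage markers was 3768 to 4174 after PBS, 3520 to 4797 after OMV-SIRP and 7450 to 7763 after OMV-SIRP-G, with all 10 at 1 FPKM or more in every library. The sum of 8 melanocyte and melanoma markers was 3074 to 3356 after PBS, 2493 to 2764 after OMV-SIRP and 850 to 955 after OMV-SIRP-G, with all 8 at 1 FPKM or more in every library. The 10 markers of fibroblasts, 3 of which reached 1 FPKM in every library, summed to 72.5 to 75.6, 53.3 to 59.7 and 29.3 to 34.3 FPKM in the same order. Most of that sum came from Thy1, which T cells express too, and from Pcolce and Fbln1, which are also in the collagen pathway lists. T cell markers summed to 121 to 163 FPKM after PBS, 53.6 to 61.4 after OMV-SIRP and 46.2 to 53.9 after OMV-SIRP-G. The more specific fibroblast markers were near 0, with Twist2 at 0 in all 9 libraries and Pdgfra at no more than 0.169 FPKM and Fap at no more than 0.236 FPKM. The 8 pericyte and smooth muscle markers summed to 12.2 to 13.7 FPKM after PBS, 7.21 to 10.2 after OMV-SIRP and 26.9, 4.67 and 9.29 after OMV-SIRP-G. OMV-SIRP-G replicate 1, the highest of these, also stood apart by its epithelial markers. They summed to 67.6 FPKM, with Krt8 at 34.9, against 2.79 to 17.1 in the other 8 libraries. The mitochondrial share of reads was 15.2% to 19.7% after PBS, 18.5% to 21.3% after OMV-SIRP and 13.0% to 14.2% after OMV-SIRP-G. The part of these cell types and of this share in the collagen changes was not tested.

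**Figure D3:**
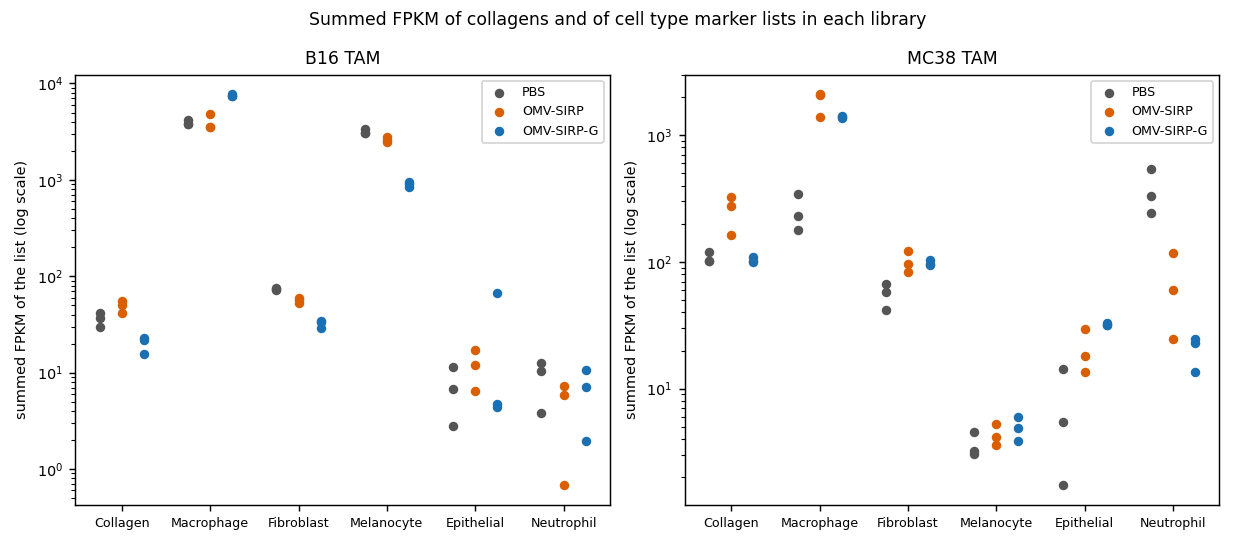
Summed FPKM of the 44 collagens and of 5 marker lists in each library of B16 TAM and MC38 TAM, on a log axis, coloured by treatment. In B16 TAM the melanocyte sum was 3074 or more after PBS and 955 or less after OMV-SIRP-G while the macrophage sum was highest there, and in MC38 TAM the macrophage sum was 341 or less after PBS and 1364 or more after both vesicle treatments.

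The genes that make and handle collagen were taken from 5 lists. Their counts stand beside 7.83% of all genes called higher and 7.28% called lower from PBS to OMV-SIRP-G in B16 TAM. Of 20 genes for folding, modification and secretion, 17 were tested in B16 TAM, of which 5 fell and 3 rose from PBS to OMV-SIRP-G and none was called after OMV-SIRP. Serpinh1, the collagen chaperone, was at 125, 135 and 130 FPKM after PBS, 119, 123 and 128 after OMV-SIRP and 55.4, 64.4 and 56.0 after OMV-SIRP-G. It fell by 1.14 (SE 0.10, adjusted p = 6.23e-05) against PBS and by 1.06 (SE 0.10, adjusted p = 0.000191) against OMV-SIRP. P3h3, a collagen prolyl hydroxylase family member, fell from a mean of 10.97 to 2.97 FPKM against PBS (adjusted p = 0.00105), and Fkbp10, a folding enzyme of procollagen, from 5.80 to 1.36 (adjusted p = 0.00201). Plod3, a lysyl hydroxylase, rose from 19.8 to 34.0 FPKM (adjusted p = 0.00179).

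Of 13 genes for procollagen processing and crosslinking, 6 were tested. From PBS to OMV-SIRP-G 2 fell and 1 rose: Pcolce, which enhances removal of the procollagen C-terminal end, fell from 16.9 to 10.1 FPKM (adjusted p = 0.00943), the procollagen protease gene Adamts14 from 2.76 to 0.709 (adjusted p = 0.0376), and the transglutaminase gene Tgm2 rose from 32.6 to 44.5 (adjusted p = 0.0345). The Tgm2 and Adamts14 calls held in 5 and 4 of 12 alternatives. Lox, the lysyl oxidase that starts crosslinking, did not pass the filter: it was at 0.448, 0.307 and 0.592 FPKM after PBS, 0.571, 0.244 and 0.556 after OMV-SIRP and 0, 0 and 1.07 after OMV-SIRP-G.

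Of 21 matrix partners of collagen, 13 were tested, and 4 fell and 3 rose from PBS to OMV-SIRP-G. Sparc, a secreted collagen-binding protein, was at 59.9, 59.7 and 59.1 FPKM after PBS, 59.7, 62.3 and 60.5 after OMV-SIRP and 27.4, 30.0 and 27.0 after OMV-SIRP-G, a fall of 1.06 (SE 0.10, adjusted p = 8.38e-05) against PBS. Fbln1, a matrix glycoprotein, fell from a mean of 17.9 to 5.62 FPKM (adjusted p = 0.000230). Fn1, which encodes fibronectin, went the opposite way, at 8.19, 10.8 and 12.3 FPKM after PBS, 21.6, 27.1 and 16.9 after OMV-SIRP and 64.5, 57.7 and 53.3 after OMV-SIRP-G. It rose by 2.39 (SE 0.19, adjusted p = 3.93e-05) from PBS to OMV-SIRP-G and by 0.99 (SE 0.19, adjusted p = 0.0293) to OMV-SIRP, the latter call being kept in 5 of 12 alternatives. Thbs1, which encodes thrombospondin 1, rose from 20.5 to 93.0 FPKM after OMV-SIRP-G (adjusted p = 3.04e-05).

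Of 11 collagen receptors, 6 were tested, and 2 rose and 2 fell from PBS to OMV-SIRP-G. Mrc1, the mannose receptor that takes up collagen fragments, rose from 26.6 to 127 FPKM (adjusted p = 7.77e-06) and Lair1, an inhibitory receptor for collagen on leukocytes, from 3.95 to 8.12 (adjusted p = 0.00941). The discoidin domain receptor genes fell, Ddr1 from 8.48 to 3.65 FPKM (adjusted p = 0.00822) and Ddr2 from 5.67 to 1.69 (adjusted p = 0.00217). All 6 collagen-degrading enzymes were tested, and 4 rose from PBS to OMV-SIRP-G while none fell: Mmp14 from 23.0 to 56.5 FPKM (adjusted p = 9.7e-05), Mmp13 from 6.03 to 20.3 (adjusted p = 0.00373), Ctsk from 15.98 to 33.6 (adjusted p = 0.0127) and Mmp8 from 2.9999 to 7.996 (adjusted p = 0.0394). The Mmp8 call was kept in 5 of 12 alternatives. After OMV-SIRP against PBS, Fn1, Mrc1 and Mmp14 were the 3 genes called over the 5 lists, all higher, and the Mrc1 and Mmp14 calls were kept in 4 and 3 of 12 alternatives. Mrc1 is itself 1 of the 10 macrophage markers.

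From OMV-SIRP to OMV-SIRP-G, where all tested collagens had negative changes, the lists went both ways. Beside them, 6.35% of all genes were called higher and 5.62% lower. Of the 17 tested folding and modification genes 4 fell, Serpinh1, P3h3 and Fkbp10 among them, and Plod3 rose. Of the 13 tested matrix partners 4 fell, Sparc and Fbln1 among them, and Fn1 and Thbs1 rose. Pcolce and Loxl2 fell and Tgm2 rose, the latter from 21.7 to 44.5 FPKM (adjusted p = 0.000679), and Ddr1 and Ddr2 fell while Mrc1 and Lair1 rose. Of the degrading enzymes 3 rose, Mmp13, Mmp14 and Mmp8. The calls of Mmp8, Lair1, Loxl2 and Ddr2 were kept in 4, 5, 6 and 7 of 12 alternatives.

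MC38 TAM need 2 facts before their collagens. OMV-SIRP replicate 2 stood apart from the other libraries of its group: 12818 genes were above 0 in it, against 20054 and 21580, and its collagens differed in kind. Col2a1, the chain of the main cartilage collagen, was at 48.8 FPKM in it, against 0.232 and 0.165 in the other OMV-SIRP libraries, 0, 0 and 1.65 after PBS and 0, 0.0915 and 0.212 after OMV-SIRP-G. Some other cartilage genes were high in the same library, with Comp at 13.9, Matn1 at 13.7 and Ucma at 8.62 FPKM and at most 0.129 FPKM in the other OMV-SIRP libraries. These genes were chosen after their values were seen. A list of 10 cartilage genes, also chosen then, did not have its highest sum in that library. It summed to 33.1, 46.1 and 60.5 FPKM after OMV-SIRP and to 62.7, 58.8 and 52.1 after PBS. After PBS most of that sum was Sox9, at 51.4 to 62.7 FPKM. In replicate 2 Sox9 was at 8.84 FPKM, and Comp, Matn1 and Ucma made up most of the sum. Col11a1 at 2.88 and Col9a2 at 2.29 FPKM, both of cartilage fibrils, were also highest there, while Col8a1 had 0 reads, against 4.73 and 4.25 FPKM in the other OMV-SIRP libraries.

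The PBS libraries of MC38 TAM were the other exception. Their 10 macrophage markers summed to 178, 230 and 341 FPKM, with 7 of the 10 at 1 FPKM or more in all 3 libraries, against 1403 to 2108 after OMV-SIRP and 1364 to 1410 after OMV-SIRP-G. Mrc1 was at 1.22, 0.288 and 0.151 FPKM and C1qa, a complement gene of tissue macrophages, at 4.46, 6.87 and 17.2, so the defining markers of the labelled cell type were low in these 3 libraries. Neutrophil markers summed to 242 to 539 FPKM there, against 24.6 to 117 and 13.6 to 24.6 after the 2 vesicle treatments. The share of reads from mitochondrial genes was 2.98% to 5.07% after PBS, 15.2% to 21.5% after OMV-SIRP and 6.06% to 6.46% after OMV-SIRP-G. Genes above 0 were also few in the PBS libraries, at 15761, 16108 and 13470, against 18798 to 19863 after OMV-SIRP-G. The part of these differences in the collagen results against PBS was not tested.

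In MC38 TAM the summed collagen FPKM was highest in 2 of the 3 OMV-SIRP libraries. The 44 genes summed to 119.9, 101.1 and 102.1 FPKM after PBS, 328, 164 and 278 after OMV-SIRP and 109.5, 99.3 and 101.8 after OMV-SIRP-G. OMV-SIRP replicates 1 and 3 were above all other libraries, and the PBS and OMV-SIRP-G sums overlapped. The place of replicate 2 rested on Col2a1: over the other 43 genes its sum was 115, below PBS replicate 1 at 119.9. Of 18 tested members, 4 rose from PBS to OMV-SIRP, 1 rose from PBS to OMV-SIRP-G and none was called between the vesicle treatments with all libraries. Without OMV-SIRP replicate 2, 11 rose from PBS to OMV-SIRP and 8 fell from OMV-SIRP to OMV-SIRP-G. That library was singled out after its values, collagens included, were seen. These counts, and the changes without it given below, therefore only describe the other libraries. Leaving out any other library gave 2 to 5 and 0 to 1 calls.

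Col1a2 showed the clearest change. It measured 1.27, 0.947 and 0.403 FPKM after PBS, 16.4, 8.69 and 12.1 after OMV-SIRP and 4.06, 3.98 and 4.04 after OMV-SIRP-G, with no overlap between any of the 3 groups. It rose by 2.83 (SE 0.30, adjusted p = 0.000911) after OMV-SIRP, where higher calls made up 7.40% of the 14089 genes tested, and by 1.45 (SE 0.30, adjusted p = 0.0102) after OMV-SIRP-G, where they made up 13.1%. Both calls were kept under all 12 alternatives. The group means of 0.874 and 12.4 FPKM stand 14.2 times apart.

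Col1a1, the other chain of collagen I, was at 0.739, 1.55 and 2.07 FPKM after PBS, 8.62, 8.44 and 5.75 after OMV-SIRP and 1.21, 1.32 and 1.63 after OMV-SIRP-G. It rose by 1.83 (SE 0.31, adjusted p = 0.00865) after OMV-SIRP, in all 12 alternatives, and was at -0.01 (SE 0.31, adjusted p = 0.992) after OMV-SIRP-G. The ratio of Col1a1 to Col1a2 FPKM was 0.581, 1.64 and 5.15 after PBS, 0.525, 0.972 and 0.474 after OMV-SIRP and 0.298, 0.331 and 0.403 after OMV-SIRP-G. In B16 TAM that ratio was between 1.62 and 4.41 in all 9 libraries. The deposited lengths behind these values are 6563 bases for Col1a1 and 12426 for Col1a2, so the ratio holds only per deposited length.

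Col3a1 gave 3.71, 3.20 and 6.37 FPKM after PBS, 45.4, 8.98 and 31.6 after OMV-SIRP and 10.4, 10.9 and 10.1 after OMV-SIRP-G. All OMV-SIRP libraries were above all PBS libraries, but replicate 2 lay below the OMV-SIRP-G libraries. The rise after OMV-SIRP was 2.23 (SE 0.50, adjusted p = 0.0237) with all libraries. As a description, it was 2.89 (SE 0.27) without replicate 2. Col5a1 measured 3.27, 2.29 and 4.40 FPKM, then 9.98, 6.34 and 11.1, then 6.44, 5.16 and 3.81, and rose by 1.23 (SE 0.30, adjusted p = 0.0316) after OMV-SIRP. The Col3a1 and Col5a1 calls were kept in 7 and 5 of 12 alternatives. Col5a3, another collagen V chain, was at 5.51, 6.10 and 5.87 FPKM after PBS, 18.5, 5.57 and 13.3 after OMV-SIRP and 6.56, 5.14 and 5.50 after OMV-SIRP-G. It was not called after OMV-SIRP with all libraries. Its change there without replicate 2, as a description, was 1.29 (SE 0.21).

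Of the beaded filament chains, Col6a3 and Col6a1 had the highest mean FPKM of all collagens in MC38 TAM. Col6a3, the long chain of collagen VI, measured 44.8, 36.4 and 28.2 FPKM after PBS, 54.1, 21.8 and 48.4 after OMV-SIRP and 18.2, 19.8 and 19.4 after OMV-SIRP-G. Its OMV-SIRP-G values were below every other library of the population, yet the change against PBS, -0.87 (SE 0.32), did not pass (adjusted p = 0.0859). Col6a1 was at 11.6, 11.4 and 12.6 FPKM after PBS, 64.5, 10.7 and 52.8 after OMV-SIRP and 20.8, 11.97 and 19.3 after OMV-SIRP-G, and Col6a2 at 3.44, 4.38 and 0.409, then 25.3, 4.28 and 19.6, then 8.70, 5.85 and 5.74. OMV-SIRP replicate 2 lay within the PBS range for Col6a2, just below every PBS library for Col6a1, and below every PBS library for Col6a3. None of the 3 chains was called after OMV-SIRP with all libraries. As a description without that library, the changes there were 2.21 (SE 0.24) for Col6a1, 2.85 (SE 0.53) for Col6a2 and 0.50 (SE 0.20) for Col6a3. Whether the 3 chains differ in their change was not tested.

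Other classes followed the same split of libraries. Col16a1 was at 9.03, 6.01 and 7.24 FPKM after PBS, 19.4, 7.53 and 17.3 after OMV-SIRP and 6.27, 6.78 and 5.69 after OMV-SIRP-G. Col18a1 was at 3.33, 4.34 and 4.49 FPKM, then 18.05, 2.13 and 13.6, then 5.17, 5.21 and 4.09. Col4a1 measured 4.71, 6.70 and 3.98 FPKM, then 11.4, 5.61 and 11.9, then 3.86, 3.33 and 4.34, and Col4a2 11.997, 3.38 and 7.001, then 11.6, 1.97 and 17.1, then 5.37, 6.27 and 6.21. In each of these 4 genes OMV-SIRP replicates 1 and 3 were above replicate 2, which lay within the PBS range for Col16a1 and Col4a1 and below it for Col18a1 and Col4a2. None of the 4 was called with all libraries. As a description without replicate 2, the changes after OMV-SIRP were 1.73 (SE 0.22) for Col18a1, 1.21 (SE 0.20) for Col16a1, 1.07 (SE 0.24) for Col4a1 and 0.97 (SE 0.41) for Col4a2. The anchoring fibril gene Col7a1 lay between 4.77 and 10.3 FPKM over the 9 libraries, and the other 5 tested members between 0 and 5.52.

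**Figure D4:**
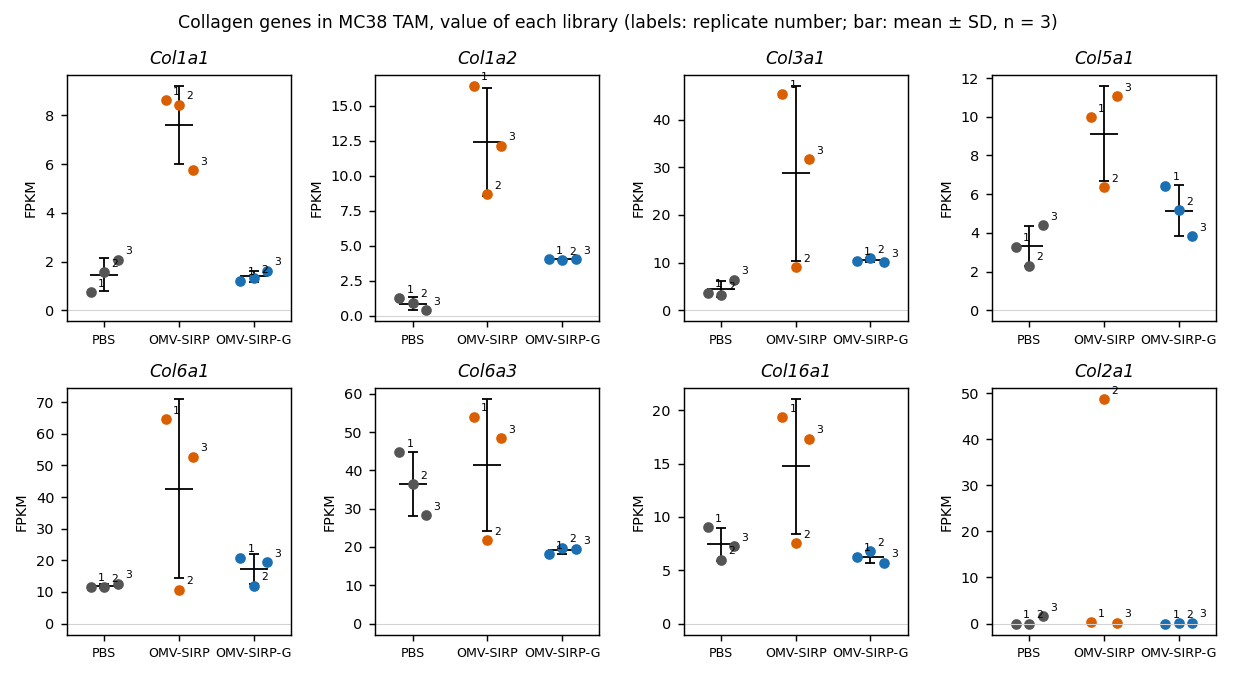
FPKM of 8 collagen genes in the 9 MC38 TAM libraries, as points numbered by replicate with the mean and SD of each group of 3 (no mean or SD for Col2a1). OMV-SIRP replicate 2 lies apart from replicates 1 and 3 for Col3a1, Col6a1, Col6a3 and Col16a1, near them for Col1a1, and is the 1 library high in Col2a1, at 48.8 FPKM.

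Counted over the 18 tested members, 17 had a positive change from PBS to OMV-SIRP, with a median of 0.83 on the log2 scale beside 0.03 for all genes. With FPKM rescaled to total reads, the median of all genes in this comparison moved to -0.27, and the calls of all genes from 1042 higher and 492 lower to 697 higher and 1635 lower, while 4 collagens were still called and Col1a2 was at 2.58 and Col1a1 at 1.57. Without OMV-SIRP replicate 2 higher calls made up 6.29% of the genes tested, beside the 11 collagens. Leaving out PBS replicate 1, PBS replicate 2 or OMV-SIRP replicate 1 left 2 of the 4 collagens called. From PBS to OMV-SIRP-G 9 changes were positive and 9 negative, with a median of -0.002 beside 0.07 for all genes.

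From OMV-SIRP to OMV-SIRP-G, 17 of 18 changes were negative, with a median of -0.90 beside 0.05 for all genes, and in 8 members the groups did not overlap, against 10.1% of all genes in that direction. With all libraries 0.383% of all genes were called in this comparison and no collagen was, although 10 tested members had an unadjusted p under 0.05. Col1a1 came closest, at -1.84 (SE 0.31, adjusted p = 0.0543). The limma voom fit on the reads called 1, Col1a2. Without OMV-SIRP replicate 2, lower calls made up 0.771% of all genes and 8 collagens were among them. That library was set aside after its collagens were seen, so this only describes the other libraries. The changes were -1.73 (SE 0.24) for Col6a1, -1.77 (SE 0.27) for Col3a1 and -1.59 (SE 0.28) for Col1a2. Those of Col6a3, Col16a1, Col18a1, Col5a3 and Col4a1 ran from -1.32 for Col5a3 to -1.52 for Col18a1. Without OMV-SIRP replicate 3 there was 1 call.

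**Figure D5:**
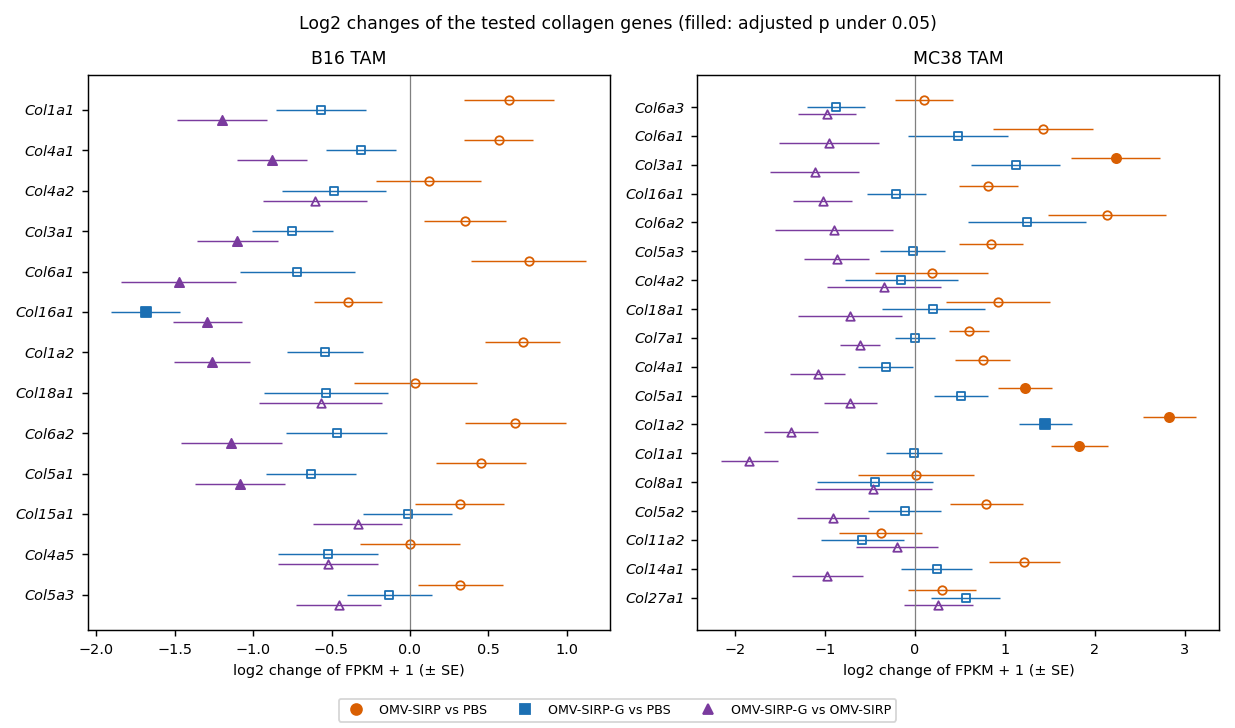
Log2 change with SE of each tested collagen gene in the 3 comparisons of B16 TAM (13 genes) and MC38 TAM (18 genes), ordered by mean FPKM, with filled symbols where the adjusted p was under 0.05. In B16 TAM the 8 filled triangles all lie below 0, and in MC38 TAM the 4 filled circles lie at 1.23 or more.

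The same 5 lists were counted in MC38 TAM, beside 7.40% of all genes called higher and 3.49% called lower after OMV-SIRP, and 13.1% and 6.86% after OMV-SIRP-G. Of 16 tested folding and modification genes, 3 rose after OMV-SIRP against PBS, Plod1 from 5.69 to 18.9 FPKM (adjusted p = 0.0187), P4ha1 from 28.5 to 47.2 (adjusted p = 0.0220) and Crtap from 16.7 to 30.3 (adjusted p = 0.0469), all 3 enzymes or partners of collagen hydroxylation. Their calls were kept in 10, 6 and 3 of 12 alternatives. After OMV-SIRP-G 2 fell, P3h4 from 15.9 to 5.55 FPKM (adjusted p = 0.0181) and Serpinh1, which was at 137, 184 and 178 FPKM after PBS, 160, 82.6 and 162 after OMV-SIRP and 58.2, 52.7 and 66.5 after OMV-SIRP-G. Serpinh1 fell by 1.47 (SE 0.26, adjusted p = 0.00560) against PBS, so this gene was lower after OMV-SIRP-G than after PBS in both tumour models.

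Sparc followed the collagen sum, with 34.4, 29.8 and 34.6 FPKM after PBS, 121, 96.4 and 104 after OMV-SIRP and 36.5, 33.9 and 36.9 after OMV-SIRP-G. It rose by 1.67 (SE 0.15, adjusted p = 0.000423) after OMV-SIRP and fell by 1.55 (SE 0.15, adjusted p = 0.00363) from OMV-SIRP to OMV-SIRP-G, and replicate 2 was among the high libraries. Fn1 rose under both treatments, from 14.1, 9.51 and 13.5 FPKM after PBS to 194, 495 and 76.4 after OMV-SIRP (3.89, SE 0.53, adjusted p = 0.00348) and 264, 255 and 259 after OMV-SIRP-G (4.30, SE 0.53, adjusted p = 0.00140). Dcn, which encodes the collagen-binding proteoglycan decorin, fell after OMV-SIRP-G from 8.33 to 2.57 FPKM against PBS (adjusted p = 0.0153) and was at 13.1 after OMV-SIRP. Of 13 tested matrix partners, 4 rose after OMV-SIRP, 1 rose and 2 fell after OMV-SIRP-G, and 2 fell between the treatments. Between the treatments 33 of all 14089 genes tested were called lower.

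Among 9 tested processing and crosslinking genes, Pcolce rose after OMV-SIRP from 10.96 to 27.2 FPKM (adjusted p = 0.0466, in 2 of 12 alternatives) and Tgm2 from 17.4 to 46.7 (adjusted p = 0.0304, in 5 of 12). After OMV-SIRP-G 2 of the 9 rose, Tgm2 and Adamts14, and Loxl4 fell from 9.35 to 3.10 FPKM (adjusted p = 0.0136). Lox did not pass the filter and was again set by 1 library, at 24.3 FPKM in OMV-SIRP replicate 2 and 0.920 or less in the other 8. Of 8 tested receptors, Mrc1 and Lair1 rose under both treatments, Mrc1 from 0.553 to 53.3 and 39.7 FPKM and Lair1 from 0.349 to 8.92 and 6.62, and Ddr2 fell from 31.1 to 9.92 and 6.09 FPKM (adjusted p = 0.0346 and 0.00942). Itga2, an integrin chain that binds collagen, rose after OMV-SIRP-G. In all, 2 receptors rose and 1 fell after OMV-SIRP, and 3 rose and 2 fell after OMV-SIRP-G. None of the receptors was called between the 2 treatments. Mrc1 is 1 of the 10 macrophage markers, which summed to only 178 to 341 FPKM in the PBS libraries here. The part of that difference in the receptor changes was not tested.

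None of the 6 collagen-degrading enzymes was called after OMV-SIRP, with Mmp14 at 26.4, 35.5 and 27.6 FPKM after PBS and 49.2, 39.4 and 39.8 after OMV-SIRP (0.51, SE 0.17, adjusted p = 0.0782). After OMV-SIRP-G Mmp13 rose from 34.3 to 133 FPKM (adjusted p = 0.00231), Mmp14 rose to 46.8, 44.5 and 44.2 (0.59, SE 0.17, adjusted p = 0.0338, in 4 of 12 alternatives) and Mmp2 fell from 73.3 to 38.2 (adjusted p = 0.0172). The fibroblast markers summed to 41.6 to 67.2 FPKM after PBS, 83.1 to 121 after OMV-SIRP and 94.0 to 103 after OMV-SIRP-G. Thy1, which T cells express too, was again the largest part of this sum, at a mean of 25.3, 49.1 and 76.1 FPKM. As Thy1 was highest after OMV-SIRP-G, the sum there does not show that the other fibroblast markers stayed high. The fibroblast markers at 1 FPKM or more in all 3 libraries of a group numbered 6, 5 and 4 of 10. T cell markers summed to 62.3 to 139, 97.0 to 145 and 145 to 165 FPKM in the same order. The 8 epithelial and carcinoma markers summed to 1.73 to 14.4 FPKM after PBS, 13.4 to 29.6 after OMV-SIRP and 31.8 to 33.2 after OMV-SIRP-G, with Cdx2 and Krt20 at 0 in all 9 libraries. The 8 pericyte and smooth muscle markers summed to 11.3 to 17.4, 13.6 to 18.6 and 7.32 to 7.75 FPKM. Melanocyte markers summed to at most 6.01 FPKM, with 4 of 8 at 0 in all 9. The part of these cell types in the collagen changes of MC38 TAM was not tested.

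In the marrow populations most collagens were below 1 FPKM in every library, and the highest was Col11a2, a fibrillar chain that pairs with others in collagen XI. In monocytes it measured 2.67, 2.65 and 2.33 FPKM after PBS, 3.25, 3.61 and 3.43 after OMV-SIRP and 1.83, 1.73 and 2.13 after OMV-SIRP-G, with no overlap between the groups. It fell by 0.61 (SE 0.10, adjusted p = 0.0196) from OMV-SIRP to OMV-SIRP-G, where 0.848% of all genes were called lower. That call was kept in 5 of 12 alternatives and was lost when any 1 of the 6 libraries compared was left out. Against PBS it was 0.32 (SE 0.10) higher after OMV-SIRP (adjusted p = 0.0889, with 8.53% of all genes called) and 0.29 (SE 0.10) lower after OMV-SIRP-G (adjusted p = 0.192, with 3.67% called). PBS replicate 2 of the monocytes stood apart, with neutrophil markers summing to 5793 FPKM against 2045 and 2262. Without it the genes called after OMV-SIRP went from 1026 to 3563, with Col11a2 among them, and after OMV-SIRP-G from 442 to 1479, without it. Col11a2 lies 1037 bases from the end of Rxrb on the same strand, with no overlap. The next collagens of monocytes, Col20a1 and Col9a3, were at 0.284 to 0.764 FPKM and 0.0976 to 0.732 FPKM and were not tested.

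GMP had more Col11a2, at 8.37, 6.66 and 7.42 FPKM after PBS, 6.28, 8.84 and 8.05 after OMV-SIRP and 7.81, 7.76 and 6.71 after OMV-SIRP-G, with the 3 groups overlapping. Col5a1 moved: it was at 1.35, 0.986 and 1.16 FPKM after PBS, 2.19, 2.01 and 2.02 after OMV-SIRP and 1.93, 2.56 and 1.92 after OMV-SIRP-G, with both treatments above PBS in every library. It rose by 0.51 (SE 0.10, adjusted p = 0.00871) after OMV-SIRP, where 10.6% of all genes were called higher, and by 0.53 (SE 0.10, adjusted p = 0.00935) after OMV-SIRP-G, where 6.76% were, and both calls were kept under all 12 alternatives. Col20a1, a fibril-associated collagen, measured 1.95, 1.37 and 1.85 FPKM, then 1.64, 1.63 and 1.77, then 1.21, 1.35 and 1.046, and was not called. No collagen was called between the 2 treatments in GMP, where 14.8% of all genes were. Of the 3 tested members 1, Col20a1, had an unadjusted p under 0.05 there, and limma voom on the reads called 1 lower.

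Of the collagens that led the tumour libraries, some were at or near 0 in the marrow and others were low but present. Col3a1 had 0 reads in all 9 GMP libraries and 1 read in 1 of 9 monocyte libraries, and Col1a2 had at most 7 reads in GMP and 10 in monocytes. Col4a1 and Col4a2 were above 0 in all 9 libraries of both, at 0.349 to 0.565 and 0.290 to 0.941 FPKM in GMP and 0.0648 to 0.233 and 0.0517 to 0.526 FPKM in monocytes. Col1a1 was at 0.500 to 0.968 FPKM in GMP, on 56 to 101 reads, and at 0.0274 to 0.264 FPKM in monocytes. Col1a1 thus exceeded Col1a2 per deposited length by 21.2 to 127 times in GMP, on counts of Col1a2 of 1 to 7 reads, against 0.298 to 5.15 times in MC38 TAM. The fibroblast markers summed to no more than 5.69 FPKM in either marrow population, with Lum and Twist2 at 0 in all libraries of both.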

How the data were processed

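Gene expression was measured by RNA sequencing of total RNA in 36 libraries, 3 in each of 12 groups. The authors deposited FPKM per gene with the gene length, which is the other column used here, in 3 tables, of which 1 holds both marrow populations. The submitters' processing notes name HISAT2 2.0.5, StringTie, featureCounts 1.5.0-p3 and GRCm38, without their roles. FPKM times gene length gave whole reads in 100% of 671073 values above 0, within 0.05 reads. These reads give the depths and the limits that a count of 0 allows (3 reads), which cover counting error only.

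log2(FPKM + 1) was fitted with limma 3.58.1 in R 4.3.3 (trended, robust) on the 9 libraries of a population, for genes at 1 FPKM or more in 3 libraries, with Benjamini-Hochberg adjustment over all genes of a comparison and a threshold of 0.05. The code was tested on simulated data. The alternatives were a pseudocount of 0.1, no filter on low values, rescaling to total reads, limma voom on the reads, the replicate number as a block, the 2 compared groups alone, and leaving out each library. Named are the 8 highest collagens of each tumour model, the 3 highest of each marrow population, every collagen called, the main chains of collagens I, III and IV, and from each pathway list up to 4 genes of lowest adjusted p, with Serpinh1, Lox, Sparc, Fn1 and Mmp14. The collagen genes, the pathway and marker lists and the rules were chosen with earlier results of these data known.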

Additional observations from a re-analysis of the deposited data

Results flagged for a closer look

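In 3 collagen genes every OMV-SIRP-G library moved one way against PBS in one population and the opposite way in another. Groups that do not overlap were common among all genes tested in this comparison. They were higher for 3591 of 14089 genes in MC38 TAM and 1917 of 12287 in GMP, and lower for 2339 of 12542 in B16 TAM. How many of all genes moved in opposite ways was not counted. The difference between populations was not tested, because the tables of these populations were scaled separately. Col1a2 was 1.45 higher on the log2 scale in MC38 TAM and at -0.54 in B16 TAM. Col3a1 was at 1.12 in MC38 TAM and at -0.75 in B16 TAM. Col5a1 was at 0.53 in GMP and at -0.63 in B16 TAM. Of these 6 changes, those of Col1a2 in MC38 TAM and Col5a1 in GMP passed their own test.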

How the results depend on the processing

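Counts of called collagens depended on the setting. In B16 TAM, OMV-SIRP-G against OMV-SIRP gave 8, with 2 without the filter, 4 with the compared groups alone and 2 to 5 leaving out 1 library, and OMV-SIRP-G against PBS gave 1, with 2 under voom and 1 to 2 leaving out 1 library. In MC38 TAM, OMV-SIRP against PBS gave 4, with 2 without the filter, 2 with the compared groups alone and 2 to 11 leaving out 1 library. There, OMV-SIRP-G against PBS gave 1, with 2 on total reads, 2 under voom and 3 with the compared groups alone, and OMV-SIRP-G against OMV-SIRP gave 0, with 1 under voom, 1 with the compared groups alone and 0 to 8 leaving out 1 library. In monocytes, OMV-SIRP against PBS gave 0, with 1 on total reads and 0 to 1 leaving out 1 library, and OMV-SIRP-G against OMV-SIRP gave 1, with 0 in each leave-one-out. In GMP, OMV-SIRP-G against PBS gave 1, with 2 under voom and 1 to 2 leaving out 1 library, and OMV-SIRP-G against OMV-SIRP gave 0, with 1 under voom. The cause was not tested. On total reads the calls over all genes moved from 369 higher and 657 lower to 675 and 406 in monocytes after OMV-SIRP, from 191 and 102 to 142 and 188 between the treatments there, from 1308 and 924 to 821 and 1825 in GMP after OMV-SIRP, from 823 and 998 to 1344 and 606 between the treatments there, and in MC38 TAM from 1843 and 966 to 1551 and 1431 after OMV-SIRP-G and from 21 and 33 to 28 and 20 between the treatments.

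With the replicate number as a block, B16 TAM gave 6 between the treatments, losing Col5a1 and Col6a2, and monocytes gave 0, losing Col11a2. After the mean of each group was subtracted from the log2 values of each gene, same-numbered libraries correlated at -0.37 to 0.25 over the 4 populations. Not every pair of any population was over 0.1, so the samples were taken to share only a number. These subtracted values also gave a hint. Among libraries of the other treatments, 8 of 9 B16 TAM, 3 of 9 MC38 TAM, 1 of 9 monocyte and 6 of 9 GMP libraries correlated best with their own number.

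Values that changed sign were not called in any of these settings. On total reads Sparc was at -0.010 in B16 TAM after OMV-SIRP and at -0.067 in MC38 TAM after OMV-SIRP-G, and Col4a2 at -0.13 in MC38 TAM after OMV-SIRP. Col1a1 in MC38 TAM after OMV-SIRP-G was at 0.030 with the pseudocount of 0.1, 0.11 under voom and -0.24 to 0.18 leaving out 1 library. Leaving out 1 library put Col4a2 at -0.035 to 0.24 in B16 TAM after OMV-SIRP, and in MC38 TAM at -0.33 to 0.97 after OMV-SIRP, -0.56 to 0.23 after OMV-SIRP-G and -1.12 to 0.18 between the treatments, where Fn1 was at -0.26 to 1.08.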
